A study of Mus musculus with 4 samples.

Results

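The 10 interferon-inducible guanosine triphosphatases (GTPases) described here were followed through the cell classes of MC38 tumors. They were 6 guanylate-binding proteins, Gbp2, Gbp2b, Gbp3, Gbp4, Gbp5 and Gbp7, and 4 immunity-related GTPases, Irgm1, Igtp, Iigp1 and Tgtp2. All 10 were among the 19059 genes of the probe panel. Human CTLA-4 mice (B-hCTLA-4, on C57BL/6) carried subcutaneous MC38 colon carcinoma grown from 500000 cells, and all 4 groups shared this genotype and tumor. From a tumor size of about 100 mm3, mice were given 3 intraperitoneal treatments. These were a human IgG1 isotype control at 10 mg/kg, ipilimumab, which is an anti-human CTLA-4 antibody of the human IgG1 class, at 10 mg/kg, the anti-mouse FcgRII antibody AT130-2 in the mIgG1-N297A format at 20 mg/kg, or both antibodies. On day 8 the tumors of 11 mice per group were pooled, and live CD45+ cells were sorted and fixed. Each group gave 1 set of counts from fixed-cell probes (10x Chromium Flex), called a library here. The question of the comparison was what blocking the inhibitory Fc receptor FcgRII adds to CTLA-4 antibody treatment.

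The labels of the single-antibody libraries were in conflict. One library, titled anti-human CTLA-4, had anti-mouse FcgRII in its treatment field, and the other had the reverse. They are therefore called single antibody A (titled anti-human CTLA-4) and single antibody B (titled anti-mouse FcgRII), and no difference is ascribed to either antibody alone. The article describes other doses, tumor sizes, collection times and numbers of tumors per group than the series record, which was not settled. With 1 pooled library per group there was no replicate, so no test between groups was possible. Every interval below is a 95% interval for counting error only and leaves out the spread between mice and between libraries.

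Guanylate-binding proteins and immunity-related GTPases are among the genes that interferon gamma induces most strongly in mouse cells, in part through the transcription factor IRF1. Guanylate-binding proteins assemble on pathogen-containing vacuoles and on bacteria, and several of them promote inflammasome activation by caspase-1 and caspase-11. Of the immunity-related GTPases, Irgm1 and Igtp (Irgm3) are regulators that sit on membranes of the cell itself, while Iigp1 (Irga6) and Tgtp2 (Irgb6) are effectors that load onto vacuoles.

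The genes lie in a few clusters of the genome (GRCm38). Chromosome 3 carries Gbp5 (chr3:142493978-142522344), Gbp7 (chr3:142530342-142550149), Gbp3 (chr3:142560026-142573209), Gbp2b (chr3:142594847-142619179) and Gbp2 (chr3:142620602-142638008), all on the plus strand. Gbp4 lies on the minus strand of chromosome 5 (chr5:105115767-105139586). Chromosome 11 carries Irgm1 (chr11:48861968-48871683) and Tgtp2 (chr11:49057194-49064206) on the minus strand and Igtp (chr11:58199556-58207591) on the plus strand. Iigp1 lies apart from the others.

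Promoters were read for 8 of the 10 genes, as the 250 bases before each RefSeq start (GRCm38.p6), 9 promoters in all since Gbp3 had 2 starts. Gbp4 had no matched promoter, and Iigp1 was left out of the promoter reading. The gamma-activated site, written here as TTC and GAA with 3 bases between them, a motif of promoters that respond to interferon gamma, was found in the promoters of 4 genes (Gbp5, Gbp7, Tgtp2 and Igtp). A pair of GAAA with 2 bases between them, the core of the interferon-stimulated response element bound by IRF factors, was found on either strand in 8 of the 9 promoters, and the promoter of the other Gbp3 start held neither motif. Over all 32851 promoters of the same length, 7.02% held the first motif and 2.98% the second. The matches of the 2 kinds did not overlap each other. In Gbp3 and Irgm1 the matches to the second motif overlapped among themselves. Stretches of 4 promoters that lie outside annotated exons are shown, since they place both motifs side by side in 3 of the genes described below. Motif letters are in capitals, each sequence reads 5′ to 3′ on the strand of its gene, and a match is only a description of letters.
Gbp7: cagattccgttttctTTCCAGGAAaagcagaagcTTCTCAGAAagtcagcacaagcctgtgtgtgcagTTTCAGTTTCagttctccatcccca
Tgtp2: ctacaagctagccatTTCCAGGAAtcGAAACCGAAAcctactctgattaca
Igtp: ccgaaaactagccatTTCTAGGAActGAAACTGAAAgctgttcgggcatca
Gbp2b: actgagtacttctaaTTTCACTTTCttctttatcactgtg
The Gbp7 stretch was chr3:142530215-142530307 (plus strand), and the Gbp2b stretch was chr3:142594695-142594734 (plus strand). The Tgtp2 stretch was chr11:49064258-49064308 (minus strand), inside an intron of Olfr56, and the Igtp stretch was chr11:58199496-58199546 (plus strand). In Tgtp2 and Igtp the gamma-activated site was followed after 2 bases by the GAAA pair. In Gbp7 there were 2 gamma-activated sites before the GAAA pair, and in Gbp2b only the GAAA pair was found.

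The 4 libraries held 6097 to 8173 barcodes and 129151823 to 196362818 unique molecular identifiers (UMIs), and 26785 cells were kept in 27 clusters. Classes were named from marker genes. They were myeloid cells (monocytes, macrophages and dendritic cells, 4382 to 5619 cells per library), T cells (288 to 705), NK cells and ILC1 (290 to 534), neutrophils (48 to 483), fibroblasts or tumor cells (73 to 100) and mast cells or basophils (24 to 66). Levels are given as CPM, the sum of the UMIs of a gene in a class and library, per 1000000 UMIs of the same cells. The fibroblast or tumor cell class had little RNA of Ptprc, the CD45 gene, at 12.5 to 25.02 CPM against 529 to 656 CPM in myeloid cells. A cluster led by Cd8a, Cd8b1 and Foxp3, with a median of 2.84% of UMIs on macrophage markers, was set apart as mixed. This mixed cluster held 4.17% to 9.48% of a library. Other lymphocyte clusters also held cells with macrophage RNA, described below. No full barcode was shared between libraries, while 31.4% to 34.8% of the cells of a library had a droplet barcode also seen in another. The article states that samples received barcoded probe sets and were loaded as a pool. Library here means the cells of 1 group, and the source of the shared droplet barcodes was not tested. A gene was compared where it reached 50 CPM in 1 of the 2 libraries, and it is counted as higher or lower where the ratio was at least 1.5 in either direction. A gene under 50 CPM in isotype control was thus compared only where the other library was higher. Such a gene could not be counted as lower. Probe counts of different genes are not comparable in level, so levels are compared within a gene only. Counts of genes beyond counting error were not set beside a share of all genes, except for opposite directions between classes.

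In myeloid cells the GTPases were highest in the combination library and lowest in single antibody B. Of 9 genes compared, 8 exceeded isotype control at least 1.5-fold in the combination, against 4.08% of all 4661 genes compared, and none was lower, against 3.05%. The median ratio of the 9 genes was 2.07, and that of all genes was 0.933. In single antibody A, 2 of 9 genes passed the same limit (0.566% of all genes). In single antibody B, none of 8 did so (0.367% of all genes), and 1 was at least 1.5-fold lower (0.777% of all genes). At resolution 0.4, without integration or with no doublets left out, the count in single antibody A was 1. Gbp2b was under 50 CPM in isotype control, so it was compared only in single antibody A and the combination, where it was higher.

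Gbp2, which is isoprenylated and targets vacuoles, had 630.4 CPM in isotype control, 774 in single antibody A, 466 in single antibody B and 1303 in the combination. The combination was 2.07 times isotype control (2.05 to 2.09) and 1.68 times single antibody A (1.67 to 1.70). The 4 libraries did not overlap within counting error, and their order was single antibody B, isotype control, single antibody A and combination. Gbp5, which has been linked to NLRP3 inflammasome assembly, followed the same order with 145, 194, 109.6 and 324 CPM in isotype control, single antibody A, single antibody B and the combination. Its ratio of combination to isotype control was 2.24 (2.20 to 2.28).

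Among the genes compared Gbp4 had the largest ratio in the combination, with 114 CPM in isotype control, 154 in single antibody A, 70.7 in single antibody B and 288 in the combination. The ratios to isotype control were 2.54 (2.49 to 2.59) in the combination and 0.622 (0.604 to 0.641) in single antibody B, the only member counted as lower there. Gbp2b, the mouse gene also known as Gbp1, was the exception in order. It had 21.6, 59.4, 10.1 and 52.3 CPM, so that single antibody A was highest and the combination reached 0.881 times that level (0.849 to 0.915). Gbp3 had 151, 174, 119 and 213 CPM and, at a ratio of 1.41 (1.38 to 1.44), was the only gene compared that stayed under the 1.5-fold limit in the combination. Gbp7 had 128, 151, 95.1 and 196 CPM, with a ratio of 1.53 (1.499 to 1.565).

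The immunity-related GTPases had the same order of libraries. Of the regulators, Irgm1 had 242, 296, 191 and 392 CPM in isotype control, single antibody A, single antibody B and the combination, with a ratio of combination to isotype control of 1.62 (1.60 to 1.65). Igtp had 152, 184, 121 and 264 CPM, with a ratio of 1.74 (1.71 to 1.78). Among the effectors the ratios were larger. Iigp1 had 119, 180.2, 112 and 283 CPM, which gave 2.38 (2.33 to 2.43) in the combination and 1.51 (1.48 to 1.55) in single antibody A, while single antibody B was close to isotype control at 0.941 (0.917 to 0.966). Tgtp2 stayed below 50 CPM, with 18.5, 27.2, 15.4 and 36.5 CPM and a ratio of 1.97 (1.87 to 2.08). Tgtp2 has a near-identical neighbour, Tgtp1, so its probe counts are uncertain as to the copy.

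**Figure D1:**
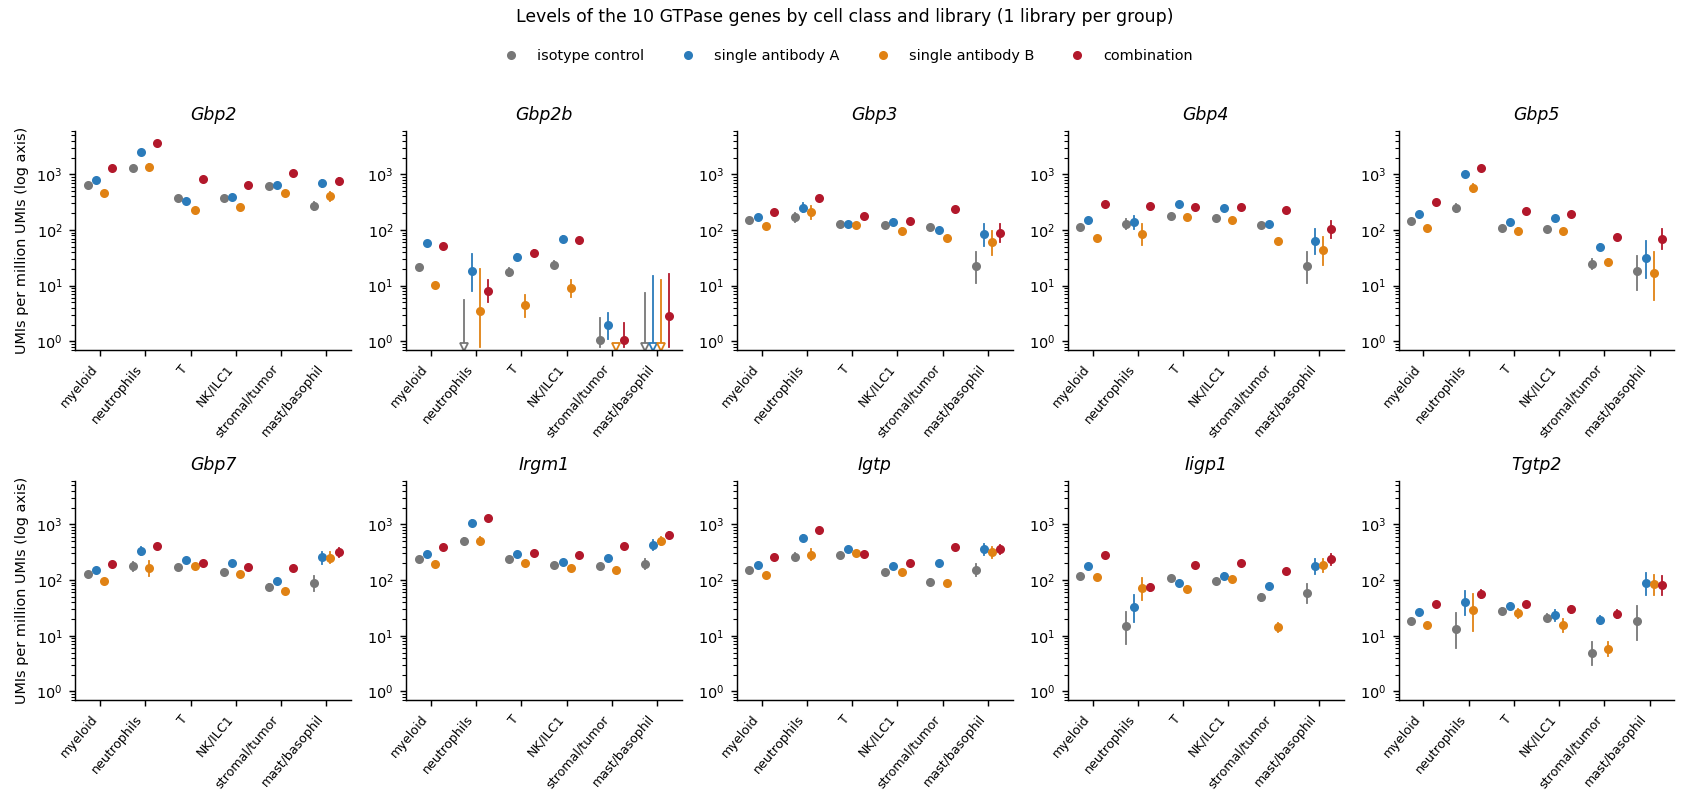
Level of each of the 10 genes (CPM, log axis) in 6 cell classes; points are the 4 libraries, bars are 95% Poisson intervals for counting error, and open triangles at the bottom mark libraries with 0 UMIs of the gene. In myeloid cells the combination was highest for 9 genes, and single antibody A was highest for Gbp2b (59.4 CPM).

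The difference was seen as more cells with the transcript at equal depth as well as in the summed level. With each myeloid cell thinned to 6831 UMIs, leaving out 353 to 767 shallower cells per library, a cell held a UMI of 3.70 of the 10 genes on average in isotype control, 4.32 in single antibody A, 2.94 in single antibody B and 5.57 in the combination. Without thinning the means were 4.84, 5.63, 4.28 and 6.91. Cells with a Gbp2 UMI made up 61.5%, 69.8%, 49.97% and 87.5% of thinned myeloid cells, in the same order of libraries. For Gbp4 the shares were 31.4%, 39.3%, 21.4% and 60.6%, and for Gbp5 they were 34.9%, 41.1%, 26.6% and 60.7%. For all 10 genes the share in the combination exceeded that in isotype control. For background, Gbp2b had a UMI in at most 1.82% of fibroblasts or tumor cells thinned to 10900 UMIs.

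**Figure D2:**
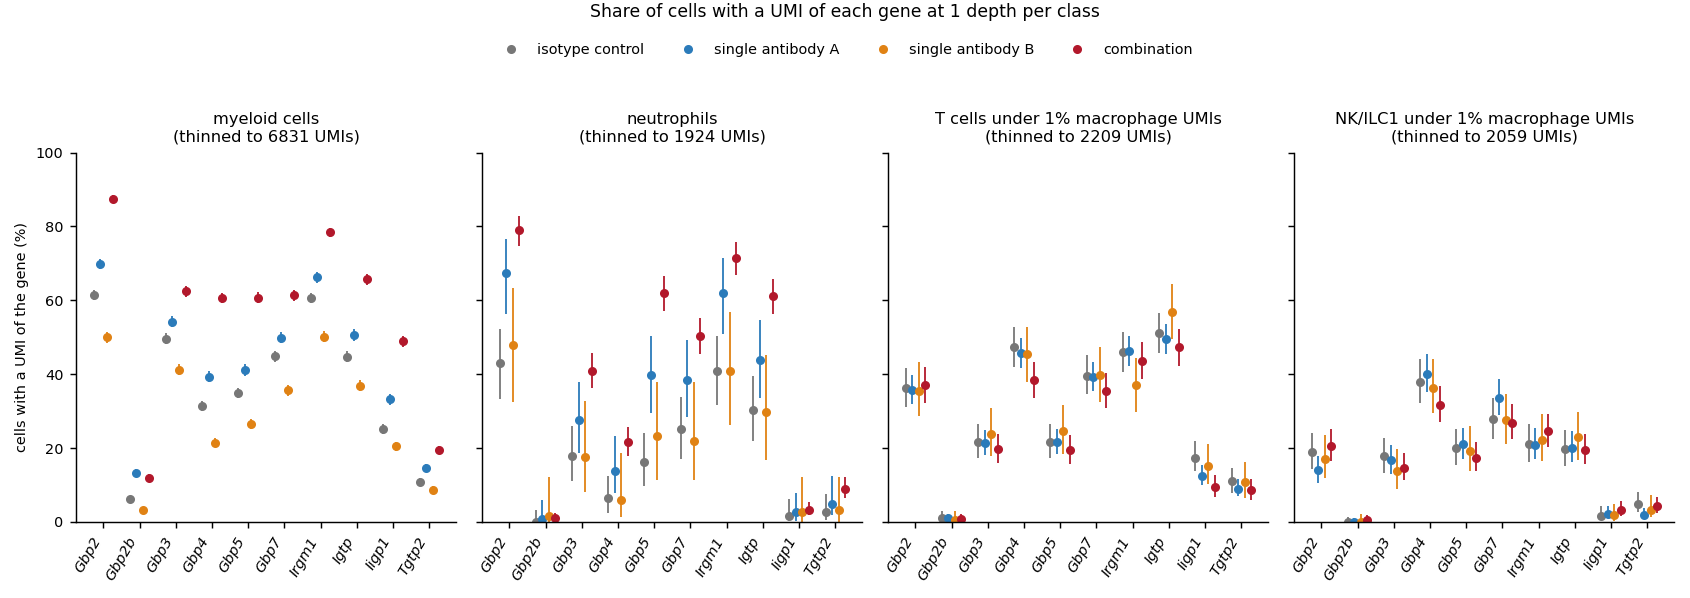
Share of cells with at least 1 UMI of each gene (percent) in 4 classes, with each cell thinned to 1 depth per class given in the panel title; points are libraries and bars are exact binomial 95% intervals. The combination stood highest in myeloid cells for 9 genes and in neutrophils for 9, the exception there being Gbp2b at 1.53% in single antibody B and 1.02% in the combination.

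The class was then split into its clusters, which had been built without the GTPase genes. In the 12 myeloid clusters with at least 50 cells in every library, the combination was above isotype control in 118 of 120 pairs of gene and cluster. Only the 10 genes were read in the clusters, so counts of pairs have no share of all genes beside them. The median ratio of the 10 genes was highest in the cluster led by Igf1, Cbr2 and Folr2 (2.97) and in that led by Mmp12, Hspb1 and Adm (2.96), and all 10 genes were above 1.5-fold in both. It was lowest in the cluster led by Nos2, Ly6i and Slc4a11, at 1.33. The exceptions were Gbp2b in that Nos2 cluster, at 0.867, and Gbp3 in the cluster led by Chil3, Cd177 and Nrg1, at 0.981.

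The 3 clusters with the smallest median ratios had the highest Gbp2 levels of the 12 in isotype control. The same held for Gbp4, Gbp5, Gbp7 and Igtp, but not for Gbp2b, Gbp3, Irgm1, Iigp1 and Tgtp2. The level in isotype control is also the denominator of each ratio. Gbp2 had 2370 CPM in isotype control and 2709 in the combination in the Chil3 cluster, 1295 and 1975 in the cluster led by Ifit2, Cmpk2 and Ifit3, and 1102 and 1592 in the Nos2 cluster. In the Mmp12 cluster it had 220.4 CPM in isotype control and 822 in the combination. Iigp1 went from 11.3 to 63.8 CPM in the cluster led by Ace and Adgre4, markers of nonclassical monocytes, and from 331 to 522 CPM in the Ifit2 cluster.

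Single antibody B was below isotype control in 98 of the 120 pairs, again without a share of all genes beside it. It was not so in the Ace and Adgre4 cluster, where the median ratio was 1.12, nor in the cluster led by Cd209a, Siglech and Kmo, with dendritic cell markers, where it was 1.23. Single antibody A had median ratios between 1.02 and 1.67 in 11 of the 12 clusters. In the cluster led by Spp1, Arg1 and Fn1 its median was 0.870, with Iigp1 at 95.6 CPM in isotype control and 59.7 CPM in single antibody A.

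**Figure D3:**
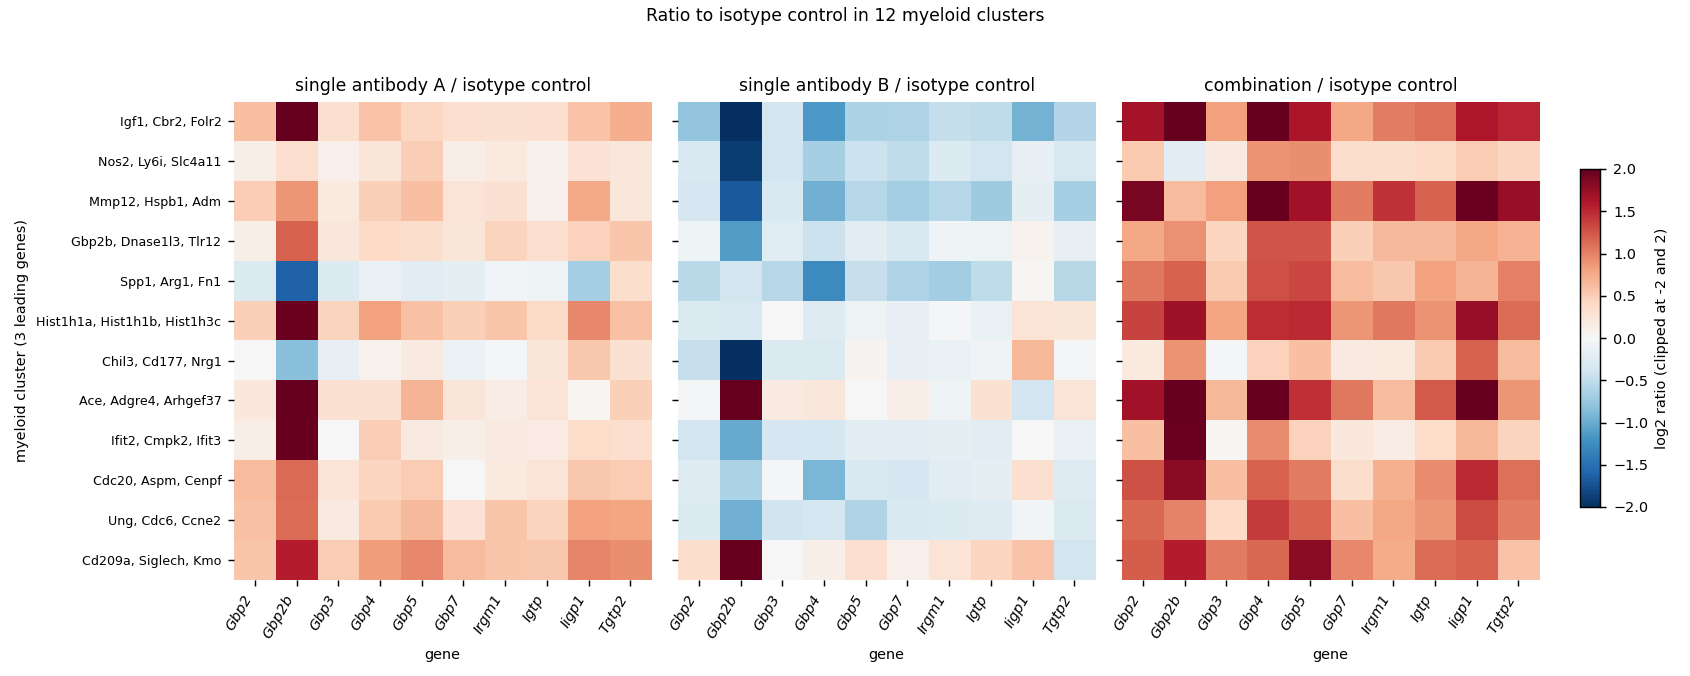
Ratio of each treated library to isotype control (log2, color scale clipped at both ends) for the 10 genes (columns) in 12 myeloid clusters named by 3 leading genes (rows). The combination panel is above 0 in 118 of 120 fields, and single antibody B is below 0 in 98 of 120. The share of all genes was not computed for these clusters.

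In neutrophils all 9 genes compared exceeded isotype control at least 1.5-fold in the combination, against 9.87% of all genes, with a median ratio of 2.73. Of these, Iigp1 and Tgtp2 were under 50 CPM in isotype control and entered the comparison only through the combination. Single antibody A had 6 of 7 genes higher (8.72% of all genes). In single antibody B, 2 of 8 were higher (9.19% of all genes) and 1 was lower (13.9% of all genes). Without cells that carried macrophage RNA, described below for this class, these counts were 8 in the combination, 3 in single antibody A and 1 higher in single antibody B. The share of all genes was not computed for the cells left, so the percentages above do not apply to these counts. The class held 122, 97, 48 and 483 cells in isotype control, single antibody A, single antibody B and the combination.

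Gbp5 had the largest ratio, with 249 CPM in isotype control, 997 in single antibody A, 563 in single antibody B and 1322 in the combination, a ratio of 5.30 (4.54 to 6.23). Gbp2 had 1314, 2480.2, 1358 and 3591 CPM, with a ratio of 2.73 (2.55 to 2.93), and single antibody B did not differ from isotype control beyond counting error (1.03, 0.914 to 1.17). Both genes were higher in single antibody A than in isotype control and higher again in the combination. Irgm1 had 506, 1077, 506 and 1299 CPM, and Igtp had 263, 577, 285 and 785 CPM, with ratios of 2.57 and 2.99 in the combination.

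Gbp3 had 168, 252, 210.2 and 373 CPM, and Gbp7 had 178, 336, 164 and 408 CPM. Gbp4 had the smallest ratio, 2.09 (1.67 to 2.64), from 128 CPM in isotype control and 268 in the combination, with 138 in single antibody A and 85.5 in single antibody B. The other 3 genes rested on few UMIs. Iigp1 had 14.7 CPM in isotype control (10 UMIs), 32.7 in single antibody A, 71.3 in single antibody B (20 UMIs) and 73.9 in the combination, and Tgtp2 had 13.3 (9 UMIs), 39.7, 28.5 and 56.0 CPM. Gbp2b had 0 UMIs in isotype control, where 3 counts would be 4.42 CPM, and 18.7, 3.56 and 8.17 CPM in the other libraries.

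Macrophage marker RNA in this class also differed between libraries. The 12 macrophage markers took 1.12%, 0.537%, 1.51% and 0.787% of neutrophil UMIs in isotype control, single antibody A, single antibody B and the combination, all 12 being detected in each. Without neutrophils that had 1% or more of their UMIs on these markers, 106, 94, 42 and 466 cells were left and 8 of the 10 genes stayed above isotype control beyond counting error in the combination. Gbp5 was then at 3.98 (3.37 to 4.74), Gbp2 at 2.12 (1.96 to 2.29) and Gbp4 at 1.60 (1.23 to 2.12). Iigp1 was then under 50 CPM in every library, at 10.7, 13.4, 0 and 22.5 CPM, with a ratio of 2.10 (0.764 to 8.07) in the combination, so its calls in single antibody B and in the combination rested on the cells left out. In single antibody A, Gbp5 (2.76), Gbp7 (1.54) and Igtp (1.75) stayed above the 1.5-fold limit, while Gbp2 was at 1.38, Gbp3 at 1.36 and Irgm1 at 1.42. Thinned to 1924 UMIs, 42.9%, 67.4%, 48.0% and 79.0% of neutrophils had a Gbp2 UMI, and 16.1%, 39.8%, 23.2% and 61.9% a Gbp5 UMI.

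Fibroblasts or tumor cells gave a like picture. All 8 genes compared were at least 1.5-fold higher in the combination, against 2.68% of all genes, with a median ratio of 2.28. Of these, Gbp5 and Iigp1 were under 50 CPM in isotype control and entered the comparison only through the combination. In single antibody A, 3 of 8 were higher (1.15% of all genes), and in single antibody B, 2 of 6 were lower (2.33% of all genes). Igtp had the largest ratio of the genes compared, with 92.3, 204, 88.3 and 385 CPM in isotype control, single antibody A, single antibody B and the combination, a ratio of 4.17 (3.73 to 4.67).

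Irgm1 had 175, 246, 152 and 416 CPM (ratio 2.37) and Iigp1 49.3, 76.7, 14.2 and 143 CPM (ratio 2.89), the latter being lower in single antibody B than in isotype control beyond counting error (0.287, 0.227 to 0.363). Gbp5 had 95, 379, 227 and 509 UMIs, or 24.8 CPM in isotype control against 75.4 CPM with both antibodies, a ratio of 3.04. Gbp3 had 111, 102, 72.9 and 240.3 CPM, Gbp4 121, 129, 64.4 and 226 CPM, and Gbp7 74.8, 95.7, 64.5 and 164 CPM. Gbp2, at 612, 647, 452 and 1041 CPM, had the smallest ratio, 1.70 (1.62 to 1.78).

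Tgtp2 stayed under 50 CPM, at 4.95, 19.4, 5.73 and 24.6 CPM. Gbp2b was nearly absent, with 0 to 1.98 CPM. Macrophage markers took 0.0413%, 0.0833%, 0.0534% and 0.0908% of the UMIs of this class, so the combination held more than isotype control. Among its cells under 1% on these markers they took 0.0413% in isotype control and 0.0309% in the combination. There 9 genes were above isotype control beyond counting error in the combination, with a median ratio of 2.27. The makeup of the class differed between libraries, with Krt8 at 331, 300, 15.4 and 227 CPM. Without the smaller of its 2 clusters (16, 10, 1 and 6 cells) the median ratio of the 10 genes in the combination was 2.21, and 9 of them were above 1 beyond counting error.

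Mast cells or basophils numbered 66, 25, 24 and 35 cells. Summed over this class, all 3 treated libraries were above isotype control, which did not hold in both of its clusters. In the combination 9 of 9 genes were higher (12.7% of all genes), in single antibody A 8 of 8 (12.9%) and in single antibody B 7 of 7 (17.2%), with median ratios of 3.82, 2.85 and 2.73. Gbp3, Gbp4, Gbp5 and Tgtp2 were under 50 CPM in isotype control, so each was compared only where a treated library was higher. Irgm1 had 195, 429, 497 and 648 CPM, Gbp7 89.3, 254, 253 and 314 CPM, and Gbp2 268, 683, 402 and 749 CPM in isotype control, single antibody A, single antibody B and the combination.

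Igtp had 152, 358, 314 and 360.2 CPM, Iigp1 58.8, 179, 186 and 235 CPM, and Tgtp2 18.3, 87.4, 84.5 and 81.3 CPM. For these 3 genes the combination did not differ from single antibody A beyond counting error, with ratios of 1.01 (0.762 to 1.34), 1.32 (0.903 to 1.94) and 0.931 (0.513 to 1.71). Gbp3, Gbp4 and Gbp5 had 9 to 11 UMIs in isotype control, with 22.3, 22.3 and 18.3 CPM there and 90.1, 105 and 69.7 CPM in the combination. Gbp2b had 1 UMI in the combination and 0 in the other libraries. One of the 2 clusters of this class held 34, 10, 3 and 12 cells, and without it 8 genes were above isotype control beyond counting error in the combination, 8 in single antibody A and 6 in single antibody B. In that cluster itself 4 genes were above in the combination and none in either single-antibody library. Its median ratios were 0.501 in single antibody A, 0 in single antibody B and 6.61 in the combination. Macrophage markers took 0.0416%, 0.0477%, 0.277% and 0.0732% of the UMIs of the class. The part of makeup and of macrophage RNA was not tested.

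**Figure D4:**
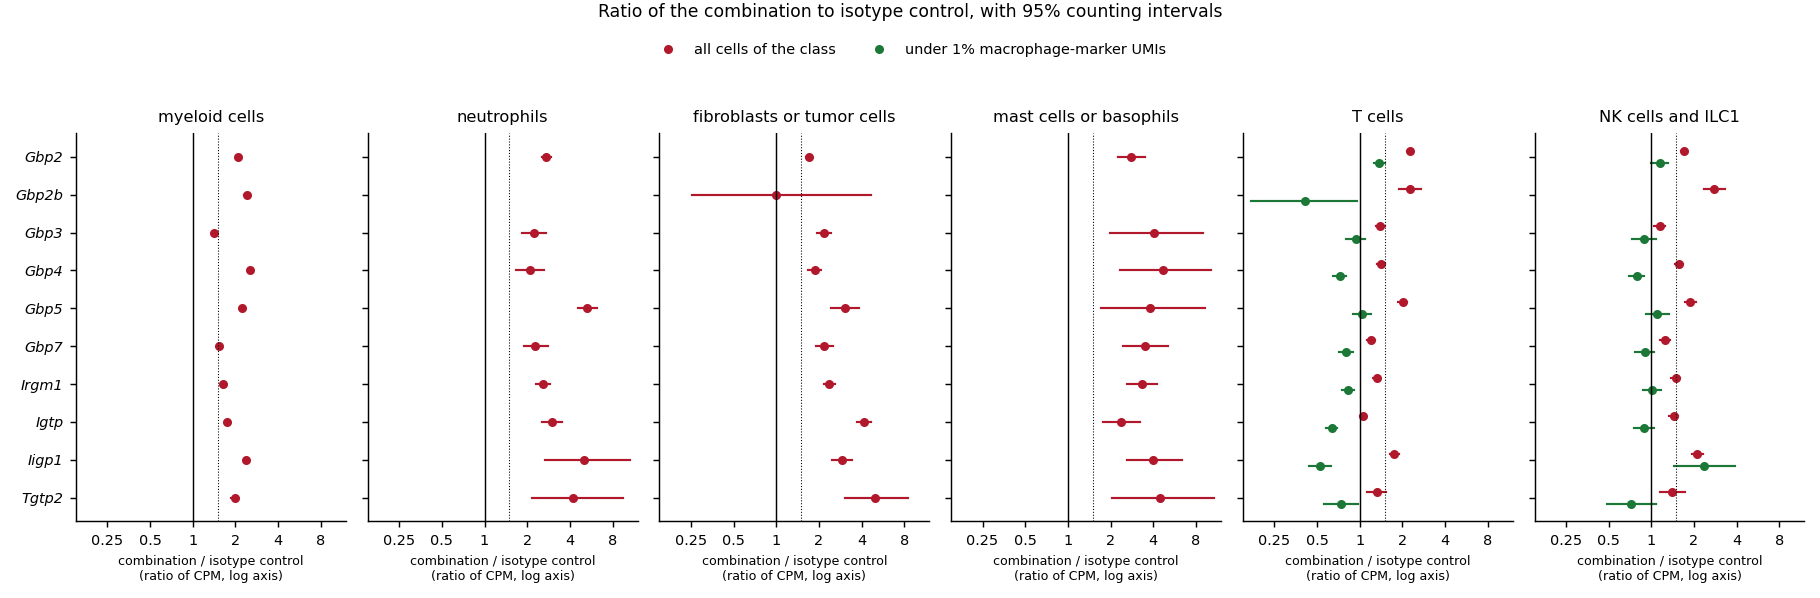
Ratio of the combination to isotype control (log axis) for each gene and class, with 95% counting intervals; the solid line marks 1 and the dotted line 1.5, and green points leave out lymphocytes with 1% or more of their UMIs on macrophage markers. Red points lie right of 1 in the first 4 panels, other than Gbp2b in fibroblasts or tumor cells (0.994), and most green T cell points lie left of it. Genes with fewer than 4 UMIs in either library are not drawn.

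T cells differed from the classes above, and the result depended on which T cells were summed. Macrophage markers took 2.11%, 0.866%, 2.04% and 1.80% of T cell UMIs in isotype control, single antibody A, single antibody B and the combination, all 12 being detected in each. Cells with 1% or more of their UMIs on these markers made up 28.0%, 7.52%, 29.5% and 25.8% of the class. Values are therefore given for all T cells and for the 384, 652, 203 and 438 T cells under 1%.

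Over all T cells, 3 of 8 genes were higher in the combination (3.14% of all genes), namely Gbp2, Gbp5 and Iigp1, with ratios of 2.25, 2.01 and 1.76. With GTPase genes among the clustering features, or at resolution 0.4, the count over all T cells was 1. Single antibody A had 1 of 8 higher (7.71% of all genes), Gbp4 at 1.61, and single antibody B had 2 of 8 lower (0.751% of all genes), Gbp2 at 0.623 and Iigp1 at 0.654. Over the T cells under 1%, none of 8 genes was higher in the combination (5.1% of all genes) and 2 were lower (3.5% of all genes). One gene was lower in single antibody A (3.96% of all genes) and 1 in single antibody B (2.33% of all genes), Iigp1 in both.

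Igtp in T cells under 1% had 539 CPM in isotype control, 416 in single antibody A, 526 in single antibody B and 341 in the combination, a ratio of 0.633 (0.583 to 0.687). Over all T cells it had 279.8, 357, 300.1 and 296 CPM and a ratio of 1.06 (1.00 to 1.11). Leaving out the cells with macrophage RNA thus raised the level in each library, most in isotype control. Iigp1 had 117, 74.3, 74.8 and 61.7 CPM under 1%, with isotype control the highest, and a ratio of 0.525 (0.436 to 0.632), against 107, 90.1, 70.3 and 189 CPM over all T cells.

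Gbp2 was the only gene of the 10 that stayed above isotype control beyond counting error in the combination. It had 331, 296, 285 and 454 CPM under 1%, a ratio of 1.37 (1.25 to 1.501). Gbp4 had 335, 337, 324 and 242 CPM, and Gbp7 had 256, 246, 275 and 205 CPM, with the combination the lowest of the 4 libraries for both. Irgm1 had 342, 305, 283 and 284 CPM. For Gbp3 (134, 122, 145 and 126 CPM) and Gbp5 (137, 131, 156 and 143 CPM) the combination and isotype control did not differ beyond counting error. Tgtp2 had 45.1, 36.2, 43.4 and 33.1 CPM and Gbp2b 7.28, 6.54, 2.99 and 2.99 CPM. In all, 7 of the 10 ratios of combination to isotype control lay below 1 beyond counting error, with no share of all genes computed. With the limit at 0.2% of UMIs, 5 did so, without Gbp2b and Tgtp2, and Gbp2 was still above 1.

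With each cell weighted equally, 9 of 10 ratios were below 1 under 1%, and 6 of 10 over all T cells, where the median was 0.923. Thinned to 2209 UMIs, 51.2%, 49.5%, 56.7% and 47.2% of T cells under 1% had an Igtp UMI, and 17.4%, 12.3%, 15.1% and 9.40% an Iigp1 UMI. The makeup of the class moved too. A cluster led by Ccl1, Rgs16 and Cd8a made up 16.4%, 33.9%, 21.7% and 31.3% of T cells under 1%, and in it 2 genes were above and 1 was below isotype control beyond counting error in the combination. In the other cluster, led by Il3, Penk and Cd4, 1 gene was above and 4 were below. The part of makeup in these ratios was not tested. In the T cells left out, with 1% or more on macrophage markers, all 10 genes were above isotype control beyond counting error and the median ratio was 1.81. No share or median of all genes was computed for these cells or for the clusters.

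NK cells and ILC1 showed the same dependence. Macrophage markers took 2.68%, 1.17%, 2.30% and 1.64% of their UMIs, and 38.0%, 9.56%, 32.1% and 23.8% of cells had 1% or more on them. Over all cells, 5 of 9 genes were higher in the combination (3.72% of all genes) and 3 of 9 in single antibody A (10.7% of all genes). With no doublets left out, with GTPase genes among the clustering features or at resolution 0.4, the count in the combination was 1. Under 1% (313, 407, 197 and 407 cells), none of 7 was higher (2.39% of all genes) or lower (2.29% of all genes) in the combination. In single antibody A, 1 was lower (3.05% of all genes), Gbp2 at 0.499, a call that was lost with the limit at 0.2%.

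Gbp2 in NK cells and ILC1 under 1% had 166, 82.6, 142 and 189 CPM, so single antibody A stood lowest and the combination was 1.14 times isotype control (0.994 to 1.31). With the limit at 0.2% it had 102, 83.2, 77.2 and 112 CPM, and the ratio of single antibody A to isotype control was 0.815 (0.655 to 1.015). Gbp4 had 249, 248, 246 and 196 CPM, with the combination below the other 3 libraries (0.787, 0.698 to 0.888). Irgm1 had 162, 133, 137 and 163 CPM, and Gbp7 had 155, 179.6, 149 and 139 CPM. Gbp5 had 99.1, 121, 112 and 109 CPM, Igtp 142, 125, 166 and 126 CPM, and Gbp3 93.2, 84.9, 70.0 and 82.4 CPM. For these 5 genes 1 lay inside the interval of the ratio of combination to isotype control. At 0.2% Gbp3, Gbp4 and Igtp lay below 1 beyond counting error in the combination and none of the 10 genes above it.

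Iigp1 differed beyond counting error, at 11.8 CPM in isotype control, 9.88 in single antibody A, 21.0 in single antibody B and 27.6 in the combination, but stayed under 50 CPM. At 0.2% it no longer exceeded counting error, with 9.69 CPM in isotype control against 10.7 CPM with both antibodies, a ratio of 1.11 (0.579 to 2.20). Over all NK cells and ILC1 it had 94.5, 119.96, 103 and 198 CPM, so that most of its UMIs came from the cells with macrophage RNA. Tgtp2 had 25.7, 11.2, 14.8 and 18.6 CPM, and Gbp2b had 0 to 2.40 CPM. A cluster led by Gzmg, Gzmc and Gzmd, granzyme genes, made up 29.1%, 26.5%, 34.5% and 43.2% of NK cells and ILC1 under 1%. In it none of the 10 genes was above isotype control beyond counting error in the combination and 2 were below, while 5 were above and none below in the cluster led by Gzma, Klra8 and Klrb1c. In the cells with 1% or more on macrophage markers all 10 genes were above, with a median ratio of 2.08. No share or median of all genes was computed for these cells or for the clusters.

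Other genes of the same pathway were read in the same sums. Of the other GTPases of these families, 7 of 12 listed were in the panel. In myeloid cells 3 of 6 compared were at least 1.5-fold higher in the combination and none was lower. Of all genes compared in this class, 4.08% were higher and 3.05% lower. Gbp6 was highest in ratio, with 35.0, 49.8, 27.2 and 80.7 CPM in isotype control, single antibody A, single antibody B and the combination (2.30), and Gvin1 lowest (1.08). Of the interferon gamma pathway, 7 of 14 genes compared were higher and 1 was lower, beside the same shares of all genes. Among the higher genes were the transcription factor gene Irf1 (1.82), the feedback inhibitor Socs1 (3.20), the PD-L1 gene Cd274 (3.53), the chemokines Cxcl9 (2.46) and Cxcl10, and Batf2. The lower gene was Ifngr1, a receptor chain, at 424, 336, 329.5 and 265 CPM (0.625).

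Type I interferon-stimulated genes and the partners of the GTPases stood closer to isotype control in myeloid cells. Of 11 type I genes compared, 2 were higher, Isg15 and Oasl1 (1.60), and Ifit3 had the lowest ratio, 0.910. The shares over all genes compared in this class were 4.08% higher and 3.05% lower. Of 12 partners compared, which act in inflammasomes and in the autophagy-like conjugation that targets these GTPases, none was higher or lower. Casp4, which encodes caspase-11, had the highest ratio, 1.33, and Aim2 the lowest, 0.843. Medians were taken over the genes compared in each list, so without Tgtp2. They were 2.07 for the GTPases described here, 1.51 for the other GTPases and 1.65 for the interferon gamma pathway. For the type I genes the median was 1.28 and for the partners 1.11, beside 0.933 over all genes.

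In neutrophils the type I genes stood with the others, with 9 of 11 higher, none lower and a median of 1.97, and 4 of 14 partners were higher and 1 lower, beside 9.87% of all genes higher and 20.5% lower. In fibroblasts or tumor cells 7 of 11 interferon gamma pathway genes were higher and none was lower, led by Cxcl9 (12.5), while 5 of 10 type I genes were higher and 2 were lower, beside 2.68% of all genes higher and 2.99% lower. In T cells under 1% the type I genes had 5 of 10 lower and none higher, and the interferon gamma pathway had 4 of 13 higher and none lower, beside 5.1% of all genes higher and 3.5% lower.

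Ifng itself, whose product induces these GTPases, was measured in lymphocytes. In T cells under 1% it had 390.3 CPM in isotype control, 1168 in single antibody A, 295 in single antibody B and 791 in the combination. In NK cells and ILC1 under 1% it had 296, 278, 213 and 114 CPM. Ifng was among the leading genes of the T cell cluster led by Ccl1, Rgs16 and Cd8a. That cluster made up 16.4%, 33.9%, 21.7% and 31.3% of T cells under 1%, in the same order of libraries. The part of makeup in the Ifng levels was not tested.

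**Figure D5:**
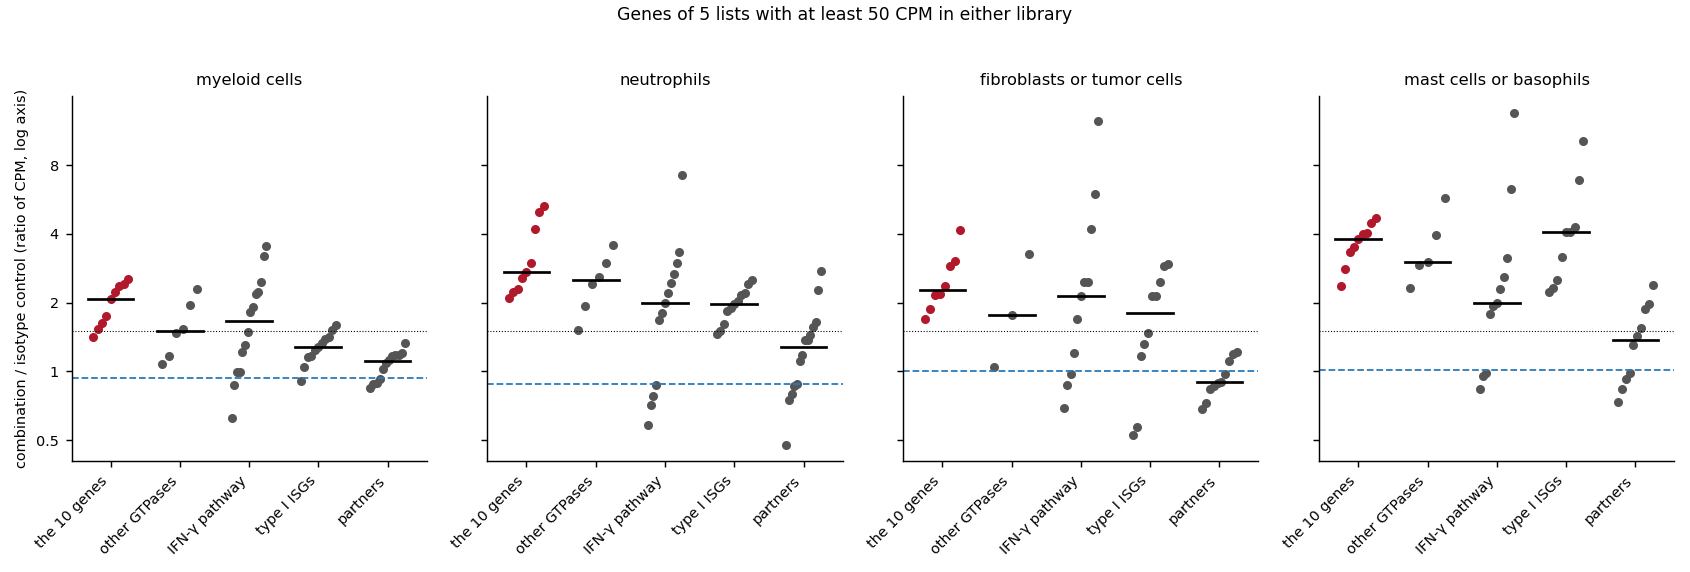
Ratio of the combination to isotype control (log axis) for genes with at least 50 CPM in either library, in the 10 GTPases and 4 other lists; points are genes, bars are list medians, the dashed line is the median of all genes compared and the dotted line is 1.5. In myeloid cells the medians were 2.07, 1.51, 1.65, 1.28 and 1.11 from left to right.

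Across the 24 sums of 6 classes and 4 libraries, the genes outside these lists whose log2 level followed the mean of the 10 GTPases most closely were Tap1 (Pearson r = 0.87), C3 (0.86), Daxx (0.86), Il18bp (0.85) and Stat2 (0.84). Sums of 1 library share its tumors and its processing, so these values are a description. The lymphocyte sums held all cells of the class, with those that had 1% or more of their UMIs on macrophage markers. Among the 10 genes, Gbp3 (0.76) and Gbp5 (0.76) followed the mean of the other 9 most closely and Iigp1 least (0.31).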

How the data were processed

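Single-cell gene expression was measured in 4 pooled CD45+ samples with fixed-RNA probes. The authors deposited UMI counts per gene and cell, made with Cell Ranger against mm10 (version 7.0.0 in the submitters' processing notes, 7.2.0 in the matrix headers). Cells with under 500 genes or over 10% mitochondrial UMIs were left out. Scrublet (scanpy 1.11.5) called only 2 or 3 doublets per library on its own threshold, so in each library the top 5% by score were removed instead. Libraries held 6097 to 8173 barcodes and median depths of 14836 to 19115 UMIs. Cells were integrated with Seurat 5.3.0 (sctransform 0.4.2, R 4.3.3) on 3000 features without the GTPase genes, with 30 principal components and resolution 0.8. The isotype control library was the only reference of the integration, since matching all pairs of libraries needed too much memory. Clusters were named from marker lists, needing 3 detected markers. Those past limits on both lymphocyte and macrophage markers were kept as mixed, so other lymphocyte clusters could still hold cells with macrophage RNA.

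UMIs were summed per class and library and given as CPM (Python 3.11.15, numpy 2.4.6, scipy 1.17.1, pandas 2.3.3). Ratios have exact conditional 95% intervals and levels exact Poisson ones. Shares of cells have Clopper-Pearson intervals after thinning to 1 depth per class. A floor of 3 counts per library was used where a gene had 0 UMIs. All 10 members are named, and of other lists only a part of the genes, among them some with the highest or lowest ratio and some of those called. The members and lists were chosen with earlier results of these data known. With 1 library per group no test was run. Groups follow sample titles. The scripts were checked on simulated data. Alternatives changed the filters, doublets, clustering, scaling, fold and level limits and thinning, and cells were left out.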

Additional observations from a re-analysis of the deposited data

Results flagged for a closer look

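For 11 comparisons, genes lay beyond counting error above isotype control in one set of cells and below it in another. None of these differences was tested, since each group had 1 library.

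In the combination, 7 genes were above isotype control in myeloid cells and below it in T cells with under 1% of their UMIs on macrophage markers. They were Gbp2b, Gbp4, Gbp7, Irgm1, Igtp, Iigp1 and Tgtp2. Among genes with at least 50 CPM in both classes this held for 5 of 8 members and 3.24% of all 4075 genes. With the limit at 0.2% it held for 5 members, without Gbp2b and Tgtp2. In NK cells and ILC1 under 1% it held for 1 gene, Gbp4 (2.91% of all genes), and at 0.2% for 3 (Gbp3, Gbp4 and Igtp). Among the myeloid clusters it held for 1 gene, Gbp2b, which was below isotype control in the Nos2 cluster, with no share of all genes computed. Over the T cells under 1% the median ratio of the 10 genes was 0.769. In the Il3, Penk and Cd4 cluster of these cells it was 0.858, with 1 gene above and 4 below beyond counting error. In the Ccl1, Rgs16 and Cd8a cluster it was 1.16, with 2 genes above and 1 below. The part of makeup was not tested.

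In single antibody A, 2 genes (Gbp2 and Iigp1) were above isotype control in myeloid cells and below it over all T cells (10.1% of all genes). In T cells under 1% the number was 4 (Gbp2, Irgm1, Igtp and Iigp1, beside 5.38% of all genes), and 3 at 0.2%, without Irgm1. In NK cells and ILC1 under 1% it was 3 (Gbp2, Irgm1 and Tgtp2), and at 0.2% it was 1, Tgtp2. Among genes with at least 50 CPM in both classes, it held under 1% for 2 of 7 members and 4.38% of all genes. Between myeloid clusters, 6 genes lay on both sides (Gbp2, Gbp2b, Gbp3, Gbp5, Gbp7 and Iigp1), with no share of all genes computed. The T cells under 1% read otherwise when split by cluster. In the Il3, Penk and Cd4 cluster 3 genes were above and 1 was below isotype control beyond counting error (median ratio 1.01). There Gbp2 was above, at 1.12 (1.007 to 1.25). In the Ccl1, Rgs16 and Cd8a cluster 2 genes were above and none was below (median ratio 1.26). The part of makeup was not tested.

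In single antibody B, genes lay below isotype control in myeloid cells and above it elsewhere. This held for 2 genes in neutrophils (Gbp5 and Iigp1, beside 2.93% of all genes) and for 1 gene over all T cells (Igtp, beside 3.22%). In mast cells or basophils it held for 7 genes (Gbp2, Gbp3, Gbp7, Irgm1, Igtp, Iigp1 and Tgtp2). Among genes with at least 50 CPM in both myeloid cells and mast cells or basophils, it held for 6 of 6 members and 4.22% of all genes. In 1 cluster of mast cells or basophils, with 34 cells in isotype control and 3 in single antibody B, no gene was above isotype control beyond counting error. With the class limited to cells under 1% on macrophage markers, 6 genes were. Without neutrophils at 1% or more on macrophage markers, Iigp1 had 0 UMIs in single antibody B. Between myeloid clusters, 6 genes lay on both sides (Gbp2, Gbp2b, Gbp5, Irgm1, Igtp and Iigp1), with no share of all genes computed.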

How the results depend on the processing

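No paired analysis was possible because each group had 1 library and no result came from a test. In the combination, 7 to 9 genes were at least 1.5-fold above isotype control in myeloid cells under every alternative that kept this limit, and 5 at a limit of 2-fold. In neutrophils the count lay between 8 and 10 under all alternatives. The combination was above isotype control in 98.2% to 100% of the pairs of gene and myeloid cluster under the 5 clusterings, with no share of all genes computed. Size factors moved log2 ratios by 0.12 in myeloid cells (combination) and by 0.30 and 0.22 in neutrophils (single antibody A and combination).

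Counts in lymphocytes and in the single-antibody libraries moved more, and except where cells were left out or a limit was changed, the cause was not tested. For the combination, the 3 genes higher in T cells became 1 at resolution 0.4, 1 with GTPase genes among the clustering features, 1 with each cell weighted equally, 6 with classes from the markers of each cell, 0 without cells at 1% or more on macrophage markers and 0 with that limit at 0.2%, an alternative chosen after seeing the data. The 5 genes higher in NK cells and ILC1 became 1 with no doublets left out, 1 with GTPase genes among the features, 1 at resolution 0.4, 3 with classes from the markers of each cell, 2 with each cell weighted equally, 2 at a limit of 2-fold, and 0 at either macrophage limit.

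For single antibody A, the 2 genes higher in myeloid cells became 1 with no doublets left out, without integration, at resolution 0.4, with classes from the markers of each cell, with each cell weighted equally and at 2-fold. Its 6 in neutrophils became 1 with classes from the markers of each cell, 3 without cells at 1% or more and 3 at 2-fold. Its 1 in T cells became 0 with no doublets left out, without integration, with GTPase genes among the features, at resolution 0.4, with each cell weighted equally, without cells at 1% or more, at a limit of 0.2% and at 2-fold, and 2 with classes from the markers of each cell, a minimum of 20 CPM or no minimum. Its 3 in NK cells and ILC1 became 1 with no doublets left out, with size factors, with each cell weighted equally and at 2-fold, and 0 with GTPase genes among the features, at resolution 0.4, with classes from the markers of each cell and at either macrophage limit.

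For single antibody B, the 2 genes higher in neutrophils became 0 with classes from the markers of each cell and 1 without cells at 1% or more. The 4 calls of a lower gene over 4 classes and 3 libraries became 2 with no doublets left out, 7 without cells at 1% or more, 0 at 2-fold and 7 with no minimum. The share of T cells with a UMI was higher in the combination for 5 of 10 genes, for 8 without thinning and for 3 when 3 UMIs were required.

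Some ratios of genes counted as higher or lower crossed 1. In T cells this held for Iigp1 in the combination (0.721 at resolution 0.4, 0.731 with each cell weighted equally, 0.525 without cells at 1% or more). In NK cells and ILC1 it held for Gbp4 in the combination (0.949 with no doublets left out, 0.977 with GTPase genes among the features, 0.968 at resolution 0.4, 0.979 with each cell weighted equally, 0.787 without cells at 1% or more). It also held there for Gbp4 in single antibody A (0.997 without cells at 1% or more). Gbp2 crossed 1 there in the combination (0.973 with GTPase genes among the features, 0.968 at resolution 0.4). In neutrophils it held for Gbp4 in single antibody B (1.05 with each cell weighted equally). Ratios within the 1.5-fold limit crossed 1 more often. Of all 120 ratios, 87 stayed on the same side of 1 without cells at 1% or more, and 96 with each cell weighted equally. At resolution 0.4 it was 98, with GTPase genes among the features 101, and with no doublets left out 104. Under the other alternatives 109 to 118 did so. Counting error limits values in neutrophils of single antibody B (48 cells) and in mast cells or basophils.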

Other observations

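The cluster set apart as mixed, with markers of both lymphocytes and macrophages, held 734, 252, 321 and 659 cells in isotype control, single antibody A, single antibody B and the combination. Gbp2 had 526, 764, 481.5 and 1157 CPM there, and the combination was 2.20 times isotype control (2.16 to 2.24). Gbp5 had a ratio of 2.42 (2.33 to 2.52) and Gbp4 of 2.19 (2.11 to 2.27), while Gbp7 had the smallest, 1.29 (1.24 to 1.34).

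B cells numbered 29, 14, 18 and 10, of which 7, 0, 9 and 3 had 1% or more of their UMIs on macrophage markers, and the part of these cells in the values below was not tested. Iigp1, the effector GTPase, had 5, 1, 19 and 25 UMIs in them, and its level went from 17.2 CPM in isotype control to 285 CPM with both antibodies. Igtp had 28, 15, 23 and 25 UMIs, with a ratio of 2.97 (1.66 to 5.28), and Gbp2 had 20, 5, 25 and 23 UMIs, with a ratio of 3.82 (2.01 to 7.34).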
